A study of Mus musculus with 6 samples.

Results

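The genes described here are 8 members of the Kruppel-like factor (Klf) family of transcription factors, Klf3, Klf4, Klf6, Klf7, Klf9, Klf10, Klf12 and Klf13, in CD8 T cells of the mouse spleen. They were chosen by name, as Klf genes other than Klf2, and all 8 are among the 17744 genes of the authors' table. The data are 6 RNA-seq libraries of CD45+ CD3+ CD8a+ cells that were sorted from the spleen and sequenced. Of these, 3 came from control animals, whose genotype label is wt, and 3 from animals labelled fus irradiation, a label that also fills their genotype field. The series title expands this to focused ultrasound, sound waves concentrated on a tissue, with the spleen as target. Strain, age, dose, interval after treatment and tumour status are not given in the sources used here. The comparison asked how the Klf genes differ between ultrasound and control libraries.

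The ultrasound libraries were not alike. On the first principal component of all tested genes, which held 70.8% of the variance, the controls had scores of -15.81 or lower, ultrasound 1 a score of -0.53, and ultrasound 2 and 3 scores of 33.22 and 39.71. On the second component, which held 19.2%, ultrasound 1 had a score of 30.09 and all other libraries lay between -11.49 and 3.51. Depth was similar, at 35024080 to 38113103 reads per library. Nothing in the labels says whether libraries of a group came from separate animals, so p-values measure the spread between these libraries, which may be technical. Results are given with and without ultrasound 1.

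Klf proteins bind GC-rich and CACCC sequences through zinc fingers at their C-terminal end, a feature shared with the related Sp proteins. They are commonly placed in functional groups: activators that recruit acetyltransferases, among them Klf4, Klf6 and Klf7, repressors that bind the corepressor CtBP, among them Klf3 and Klf12, and proteins that bind the corepressor Sin3A, among them Klf9, Klf10 and Klf13. In T cells Klf factors are known for roles in quiescence, in trafficking and in the limits set on proliferation, and several are early response genes whose transcripts change within a short time of stimulation.

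The proximal promoters below show what lies before the start of 4 members. Klf4 and Klf6 had the largest differences between the groups, Klf9 had the widest spread among ultrasound libraries relative to its level, and Klf13 had nearly the same group means. Each sequence is the 250 bases before the RefSeq start in GRCm38.p6, the assembly that corresponds to the build mm10 named in the submitters' processing notes. RefSeq windows were matched for 7 of the 8 members, all except Klf10. The Klf4 window is chr4:55532476-55532725 on the minus strand and the Klf6 window is chr13:5861239-5861488 on the plus strand. The Klf9 window is chr19:23140976-23141225 on the plus strand and the Klf13 window is chr7:63938916-63939165 on the minus strand. Capitals mark matches on either strand to TGACG (the core of the cyclic AMP response element, CRE), TGANTCA (an AP-1 site), the CCAAT box, the motif TATAAA or the CArG box bound by serum response factor.
Klf4 promoter: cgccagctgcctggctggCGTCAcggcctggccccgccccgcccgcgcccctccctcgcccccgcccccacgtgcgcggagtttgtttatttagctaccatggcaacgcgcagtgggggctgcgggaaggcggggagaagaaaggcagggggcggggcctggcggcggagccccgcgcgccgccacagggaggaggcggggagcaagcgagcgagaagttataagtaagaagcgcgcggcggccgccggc
Klf6 promoter: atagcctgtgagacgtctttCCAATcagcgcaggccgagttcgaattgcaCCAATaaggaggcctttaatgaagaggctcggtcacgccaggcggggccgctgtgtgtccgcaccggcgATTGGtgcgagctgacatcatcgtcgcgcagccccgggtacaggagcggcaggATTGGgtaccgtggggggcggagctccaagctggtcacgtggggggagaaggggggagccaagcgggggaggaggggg
Klf9 promoter: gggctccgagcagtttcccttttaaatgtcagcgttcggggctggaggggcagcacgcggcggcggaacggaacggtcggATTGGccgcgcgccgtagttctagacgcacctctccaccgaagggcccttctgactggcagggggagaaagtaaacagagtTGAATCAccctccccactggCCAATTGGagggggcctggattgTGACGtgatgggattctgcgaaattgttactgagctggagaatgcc
Klf13 promoter: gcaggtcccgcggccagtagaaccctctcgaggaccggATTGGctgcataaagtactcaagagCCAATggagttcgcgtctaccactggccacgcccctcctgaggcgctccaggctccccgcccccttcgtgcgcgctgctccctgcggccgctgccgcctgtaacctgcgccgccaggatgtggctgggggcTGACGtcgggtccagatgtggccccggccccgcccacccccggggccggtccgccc
The Klf6 window held 4 matches to CCAAT and none to the other marked motifs. Klf4 held 1 match to TGACG, which starts 232 bases before the start. The Klf13 window held 2 matches to CCAAT and 1 to TGACG. Klf9 held 3 matches to CCAAT, of which the 2 nearest to the start overlap each other, 1 to TGANTCA and 1 to TGACG. Its match to TGANTCA has A at N and so is not the usual AP-1 site. Over all 32851 RefSeq windows of this length, 17.8% held TGACG, 6.75% TGANTCA, 33.8% CCAAT, 12.4% TATAAA and 1.47% a CArG box. The GC box GGGCGG, left in lower case, was found 4 times in the Klf4 window, 3 times in Klf13, once in Klf6 and not in Klf9, against 32.7% of all windows with a match. The windows are rich in G and C, at 74.0% in Klf4, 71.6% in Klf13, 64.8% in Klf6 and 59.6% in Klf9, where the median window has 52.4%. The CACCC box, searched too, occurs in 52.0% of all windows and was found once each in Klf9 and Klf13. AGAACA, a core of the glucocorticoid response element, occurs in 16.1% of all windows and in none of these 4. A match is a run of letters and says nothing of binding in these cells.

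Levels are in FPKM, a level corrected for the length of the gene and the depth of the library. The order of genes by level rests on the lengths used for the FPKM, which were not checked here. In the controls Klf6 was the most abundant member, at 188 to 213 FPKM, and lay above 97.4% or more of the tested genes in each library. Klf13 followed at 68.2 to 72.9 FPKM and Klf3 at 58.5 to 61.3 FPKM. Klf4 had 24.3 to 28 FPKM, Klf10 15.6 to 16 FPKM, Klf7 7.0 to 8.45 FPKM and Klf9 2.45 to 3.45 FPKM. No 2 neighbours in this order overlapped over the 3 controls. Klf12 was close to absent at 0.0351 to 0.0408 FPKM, from 32 to 37 reads per library. In ultrasound 1 the order was the same except that Klf10, at 12.3 FPKM, lay above Klf4, at 11.8 FPKM. In reads Klf10 was the lower there, with 1743 against 3135 for Klf4. In ultrasound 2 and 3 Klf6 stood in place 3 behind Klf13 and Klf3. Klf4 and Klf10 had overlapping ranges over the ultrasound libraries, with Klf4 lower in ultrasound 1 and 2 and higher in ultrasound 3.

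**Figure D1:**
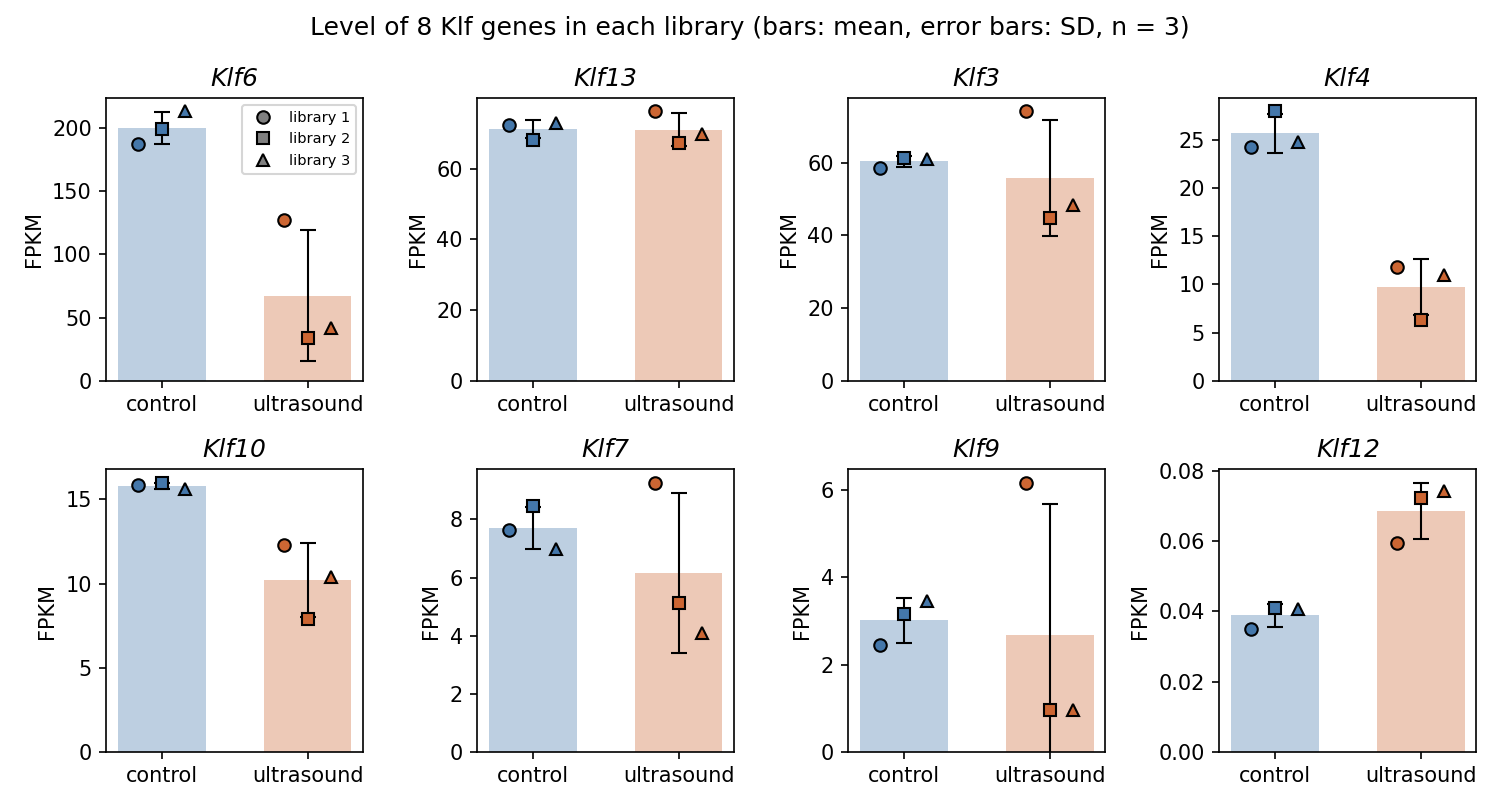
FPKM (vertical axes, each from 0) of the 8 Klf genes in control and ultrasound libraries. Points are libraries, bars means and error bars SD (n = 3); the lower error bar of Klf9 in ultrasound libraries passes 0 and is not drawn below it. Klf6, Klf4 and Klf10 lie below every control in all 3 ultrasound libraries, whereas Klf3, Klf7 and Klf9 lie on both sides of the controls.

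Klf4 (NCBI Gene 16600, chr4:55527137-55532475), a factor known for restraining proliferation in naive CD8 T cells and for its part in monocyte differentiation, was the member that fell past the threshold. The controls had 24.3, 28 and 24.9 FPKM, and ultrasound 1, 2 and 3 had 11.8, 6.36 and 11.0 FPKM. Every ultrasound library was thus below every control, and ultrasound 1 was close to ultrasound 3. The means were 25.7 ± 2.0 and 9.70 ± 2.93 FPKM (SD, n = 3 each), a 2.65-fold lower level. Measured as log2(FPKM + 1), a scale that shrinks differences between low values, the change was -1.36 with a standard error of 0.21 (limma adjusted p 0.0304 over all genes tested). It rests on 6472 to 7404 reads per control library and 1800 to 3156 per ultrasound library. Without ultrasound 1 the change was -1.51 (limma adjusted p 0.00311). The call was lost when control 2, control 3, ultrasound 2 or ultrasound 3 was left out. The limma adjusted p was then 0.159, 0.144, 0.0634 and 0.0914, although the change stayed between -1.11 and -1.46. In each of these fits 0 genes of the table were called. The unadjusted limma p of Klf4 there was 0.00255, 0.00215, 7.07e-05 and 0.000915, against 0.000406 over all libraries. Without a filter on low values the call was lost as well (limma adjusted p 0.0592).

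Klf6 (NCBI Gene 23849, chr13:5861489-5870393), a widely expressed early response gene and activator, had the largest difference in FPKM. Control libraries had 188, 199 and 213 FPKM, ultrasound 1 had 127, and ultrasound 2 and 3 had 33.6 and 41.4. All ultrasound libraries lay below all controls, with ultrasound 1 between the controls and the other ultrasound libraries. The means were 200.2 ± 12.7 and 67.5 ± 52.1 FPKM (SD, n = 3 each). The log2 change of -1.81 had a standard error of 0.46 and did not pass the threshold (limma adjusted p 0.0590). Without ultrasound 1 the change was -2.39 with a standard error of 0.10 (limma adjusted p 4.07e-05). Depth was ample, with 5310 reads or more in each library.

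Klf7 (NCBI Gene 93691, chr1:64029448-64122345), an activator close to Klf6 in sequence, was low and split the ultrasound libraries. The controls had 7.65, 8.45 and 7.0 FPKM, ultrasound 1 had 9.27, and ultrasound 2 and 3 had 5.11 and 4.08. Ultrasound 1 was thus above all controls and the other ultrasound libraries below all of them. The means of 7.70 ± 0.728 and 6.15 ± 2.75 FPKM (SD, n = 3 each) overlap, and the log2 change of -0.35 had a limma adjusted p of 0.363. Without ultrasound 1 the change was -0.64 (limma adjusted p 0.00380).

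Among the Sin3A-binding members, Klf10 (NCBI Gene 21847, chr15:38291464-38300711), known as an early gene induced by TGF-beta, was the steadiest in controls. It had 15.9, 16 and 15.6 FPKM there and 12.3, 7.89 and 10.4 FPKM in ultrasound 1, 2 and 3. The groups did not overlap, with ultrasound 1 nearest to the controls. The means were 15.8 ± 0.182 and 10.2 ± 2.22 FPKM (SD, n = 3 each), and the log2 change of -0.60 with a standard error of 0.15 missed the threshold (limma adjusted p 0.0568). With upper-quartile scaling, under which 2.01% of all tested genes are called lower, it passed at a limma adjusted p of 0.0495, and without ultrasound 1 at 0.00184 with a change of -0.74.

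Klf9 (NCBI Gene 16601, chr19:23141226-23168129), a factor known to be induced by glucocorticoids, had the widest split relative to its level. The controls had 2.45, 3.15 and 3.45 FPKM, ultrasound 1 had 6.15, and ultrasound 2 and 3 had 0.952 and 0.954. In reads these are 387 to 545 per control library, 970 in ultrasound 1, and 160 and 163 in ultrasound 2 and 3. Ultrasound 1 was above every control and ultrasound 2 and 3 were below every control, almost equal to each other. The group means of 3.01 ± 0.513 and 2.69 ± 3.0 FPKM (SD, n = 3 each) therefore describe no ultrasound library, and the log2 change of -0.41 had a limma adjusted p of 0.581. Without ultrasound 1 it was -1.03 (limma adjusted p 0.00103).

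Klf13 (NCBI Gene 50794, chr7:63886351-63938915), known in T cells as an activator of the chemokine gene Ccl5, hardly differed. Its level was 72.2, 68.2 and 72.9 FPKM in the controls and 76.2, 67.2 and 69.7 FPKM in ultrasound 1, 2 and 3. The ranges overlap, and the means were 71.1 ± 2.58 and 71.0 ± 4.63 FPKM (SD, n = 3 each). The log2 change was -0.0030 with a standard error of 0.086 (limma adjusted p 0.983), and -0.05 without ultrasound 1 (limma adjusted p 0.518).

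Of the CtBP-binding members, Klf3 (NCBI Gene 16599, chr5:64803521-64832901), known for its part in B cell and erythroid maturation, was abundant and split like Klf7 and Klf9. It had 58.5, 61.3 and 61.1 FPKM in the controls, 74.0 in ultrasound 1, and 44.8 and 48.2 in ultrasound 2 and 3. Ultrasound 1 was thus above all controls and the others were below them. The log2 change over all libraries was -0.15 with a standard error of 0.19 (limma adjusted p 0.593), and -0.37 without ultrasound 1 (limma adjusted p 0.00395). Klf12 (NCBI Gene 16597, chr14:99866181-100285891) did not reach the filter of 1 FPKM in 3 libraries and was not tested. Its reads numbered 32, 37 and 37 in the controls, 54 in ultrasound 1, 70 in ultrasound 2 and 73 in ultrasound 3. Each ultrasound library had more than each control, at levels of 0.0741 FPKM or less.

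**Figure D2:**
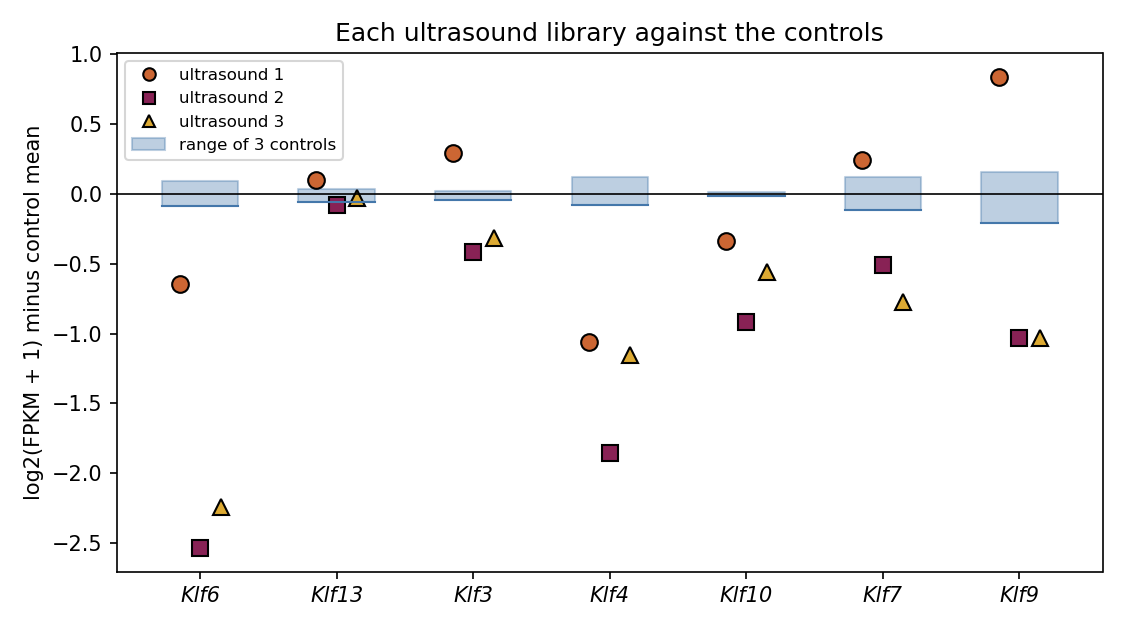
Difference of each ultrasound library from the control mean in log2(FPKM + 1) (vertical axis) for the 7 tested Klf genes, with the range of the 3 controls as a band. Klf6, Klf4 and Klf10 lie below the band in every ultrasound library, while for Klf3, Klf7 and Klf9 ultrasound 1 lies above the band and ultrasound 2 and 3 below it.

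In all, 1 of 7 tested members was called lower and 0 higher at a limma adjusted p under 0.05. The background was 1.56% of 10655 tested genes called lower and 6.55% higher, or 8.11% in all. At an unadjusted limma p under 0.05 were 3 of the 7 members and 3321 of the 10655 genes. Voom, limma's method for counts, called 1 of the 7 on recovered reads, and 573 genes (5.38%) over all tested. The balance of higher and lower calls moved with scaling. On the FPKM as deposited, limma called 698 genes higher and 166 lower. With median-of-ratios factors, which shift the median change of all genes by -0.11, limma called 280 and 188. The members' median log2 change was -0.41, beside 0.09 over all genes tested. Groups that did not overlap, with ultrasound lower, were found for 3 of the 7, Klf4, Klf6 and Klf10, against 8.96% of all tested genes. None of the 7 lay wholly above the controls, where 25.9% of all tested genes did. The pattern of Klf3, Klf7 and Klf9, with ultrasound 1 above and ultrasound 2 and 3 below all controls, was shared by 9.03% of all tested genes. When control 2, control 3, ultrasound 2 or ultrasound 3 was left out, 0 genes of the table were called by limma, with 1962, 2154, 2058 and 1998 at an unadjusted p under 0.05, and this holds for each call given below. Whether ultrasound 1 differs from ultrasound 2 and 3 in these genes was not tested. Without ultrasound 1, 6 of 7 members were called lower, all except Klf13, where 19.7% of all tested genes were called lower and 34.1% higher. Fewer cells of a type and less RNA per cell cannot be told apart in such bulk samples.

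**Figure D3:**
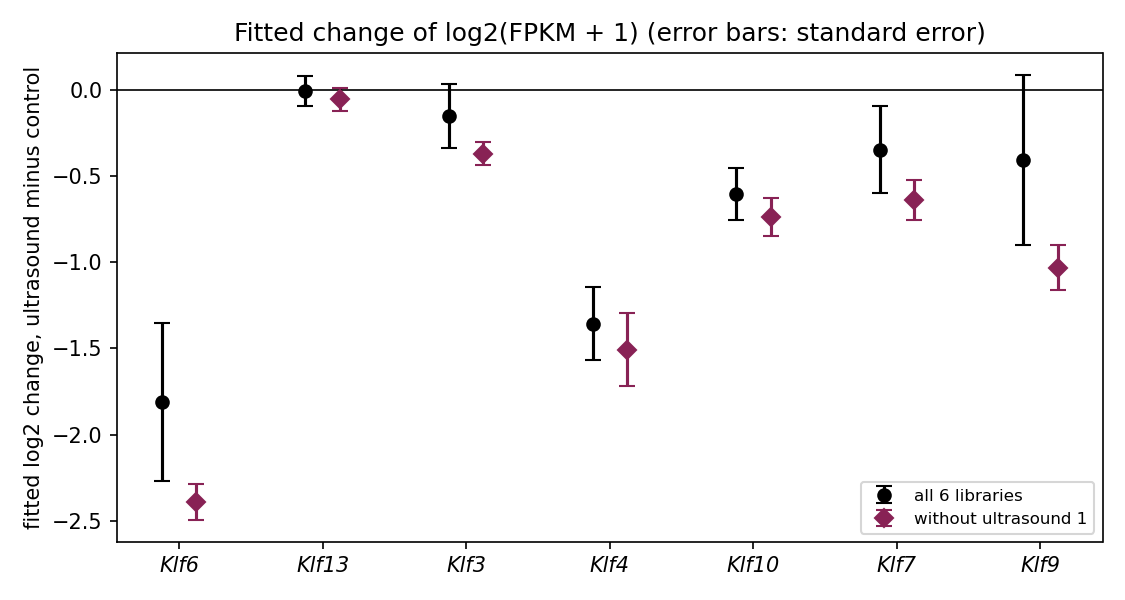
Fitted log2 change of the 7 tested Klf genes, ultrasound minus control, from all 6 libraries (circles) and without ultrasound 1 (diamonds), with standard errors. Leaving out ultrasound 1 moved Klf6 from -1.81 to -2.39 and Klf9 from -0.41 to -1.03, and Klf13 stayed near 0.

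Ratios between members within a library do not depend on how libraries are scaled. Klf6 stood at 2.60, 2.93 and 2.93 times the level of Klf13 in the controls, at 1.67 times in ultrasound 1, and at 0.50 and 0.594 times in ultrasound 2 and 3. Klf4 stood at 0.336, 0.411 and 0.341 times Klf13 in the controls and at 0.155, 0.0946 and 0.157 times in ultrasound 1, 2 and 3. Klf10 stood at 0.219, 0.234 and 0.214 times Klf13 in the controls and at 0.162, 0.117 and 0.149 times in the ultrasound libraries, in the same order. In all 3 ratios the ultrasound libraries were all below the controls. Klf3 stood at 0.810 to 0.900 times Klf13 in the controls, 0.972 in ultrasound 1, and 0.668 and 0.691 in ultrasound 2 and 3.

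The summed level of the 8 genes was 369, 385 and 398 FPKM in the controls, 317 in ultrasound 1, and 166 and 186 in ultrasound 2 and 3. Klf6 made up 50.9% to 53.6% of it in the controls, 40.2% in ultrasound 1, and 20.2% and 22.3% in ultrasound 2 and 3. The share of Klf13 was 17.7% to 19.6% in the controls, 24.0% in ultrasound 1, and 40.5% and 37.5% in ultrasound 2 and 3. The sum without Klf6 was 181 to 185 FPKM in the controls, 189.8 in ultrasound 1, and 132 and 144 in ultrasound 2 and 3. Klf6 thus carried most of the difference in the sum.

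**Figure D4:**
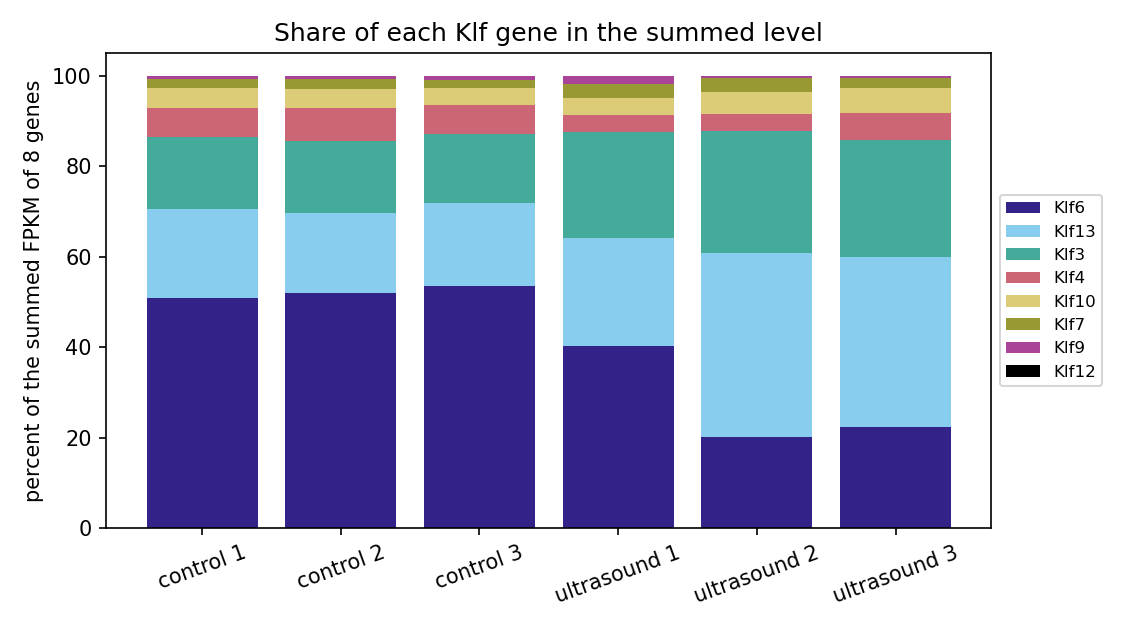
Share of each Klf gene, in percent, of the summed FPKM of the 8 genes in each library. Klf6 takes over 50% in each control and 20.2% and 22.3% in ultrasound 2 and 3, where Klf13 takes the largest share.

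Marker levels of other cell types differed between libraries, for some lists between the groups and for others among the ultrasound libraries. Over 13 macrophage and monocyte genes the summed level was 902 to 1375 FPKM in the controls and 2567, 2773 and 4273 FPKM in ultrasound 1, 2 and 3, and in 10 of 13 the lowest ultrasound library exceeded the highest control, as in 25.9% of all tested genes. Over 10 neutrophil genes it was 191 to 578 FPKM in the controls and 2395, 644 and 683 FPKM in ultrasound 1, 2 and 3. Thus ultrasound 1, where Klf3, Klf7 and Klf9 were above the controls, had the highest neutrophil level. Over 9 B cell genes the sum was 236 to 363 FPKM in the controls, 175 in ultrasound 1, and 926 and 807 in ultrasound 2 and 3. The 9 erythroid genes summed to 85.1 to 136 FPKM in the controls, 113 in ultrasound 1, and 57.4 and 61.1 in ultrasound 2 and 3. The 9 T cell genes summed to 2414 to 2531 FPKM in the controls and 2096, 2600 and 2406 FPKM in ultrasound 1, 2 and 3. The NK cell sum was 87.0 to 173 FPKM in the controls and 250, 292 and 408 FPKM in ultrasound 1, 2 and 3. Most of the ultrasound sum was Tyrobp, a signalling adaptor that myeloid cells also express, at 222, 231 and 359 FPKM against 42.6 to 136 in the controls. The 6 other NK cell genes summed to 36.3 to 44.4 FPKM in the controls. In ultrasound 1, 2 and 3 they summed to 28.2, 61.1 and 49.1 FPKM. Most of the control sum was Eomes, which was lower in every ultrasound library (19.6 to 31.7 FPKM) than in every control (32.0 to 39.9). Ncr1 was higher in each ultrasound library (0.533 to 5.85 FPKM) than in each control (0.133 to 0.228). So was Klrb1c, at 5.15 to 8.97 FPKM against 1.14 to 1.96. Klra8, Klra4 and Klre1 were above every control in ultrasound 2 and 3, and within the controls in ultrasound 1. The sums of the dendritic cell list (20.5 to 43.9 in the controls, 27.2 to 70.0 in ultrasound libraries), the stromal and endothelial list (39.4 to 40.8, and 37.3 to 56.8) and the platelet list (1.05 to 2.79, and 1.87 to 4.50) were low. No marker measured was at 0 in every library. The part of other cells in the differences of Klf genes was not tested.

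Other genes of the Klf and Sp family were listed in the table for 11 of 17 names, and 6 of these passed the filter. Of the 6, 2 fell and 0 rose past the threshold, beside 1.56% and 6.55% of all genes, with a median log2 change of -0.46 against 0.09 over all genes. Klf11, a Sin3A-binding relative of Klf10, had 12.3, 17.7 and 14.1 FPKM in the controls and 7.98, 3.08 and 3.49 FPKM in ultrasound 1, 2 and 3. Its log2 change was -1.50 with a standard error of 0.31 (limma adjusted p 0.0385). Klf16, another relative of this group, had 14.9, 19.2 and 21.0 FPKM in the controls and 11.6, 10.3 and 11.6 FPKM in ultrasound libraries, a log2 change of -0.66 (limma adjusted p 0.0397). In both, each ultrasound library was below each control. Klf5, singled out after its values were seen, was below the filter, and its level in ultrasound 1, 0.690 FPKM, was above the 0.165 FPKM or less of the controls. Ultrasound 2 and 3, at 0.0617 and 0.152 FPKM (4 and 10 reads), were not.

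Cofactors that Klf proteins recruit came next. Of 15 tested cofactor genes, 0 passed a limma adjusted p of 0.05, with 2 at an unadjusted p under 0.05, 0 by voom on recovered reads and 3 of 16 with q under 0.05 in the authors' deposited table, where 12.3% of all genes have such a q. The median log2 change was 0.04, beside 0.09 over all genes. Among the tested genes Rcor1, a subunit of a corepressor complex, had the largest change in size at -0.36. It was followed by the acetyltransferase gene Kat2b at -0.26, the deacetylase gene Hdac3 at 0.24 and the corepressor gene Sin3b at 0.23. Without ultrasound 1, 4 were called higher and 4 lower, beside 34.1% and 19.7% of all genes. Ctbp2, a CtBP gene below the filter, had 38 to 83 reads per control library and 186 to 335 per ultrasound library. In the authors' deposited table its log2 fold change was 2.06 with q of 2.23e-05.

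Genes reported as targets of one Klf protein or another went both ways, with 2 of 12 called higher, 2 lower and a median of -0.08, beside 6.55% higher, 1.56% lower and a median of 0.09 over all genes. S1pr1, the receptor for egress from lymphoid organs, fell from between 154 and 158 FPKM to between 101 and 119 FPKM (log2 change -0.50, limma adjusted p 0.0320). Smad7, an inhibitor of TGF-beta signalling, fell from between 70.8 and 79.2 FPKM to between 17.7 and 25.3 FPKM (log2 change -1.85, limma adjusted p 0.0297). Tgfb1 itself rose from between 76.5 and 81.7 FPKM to between 119 and 150.5 FPKM (log2 change 0.71, limma adjusted p 0.0304). Lgals3, which encodes galectin and is abundant in macrophages, rose from between 18.1 and 42.0 FPKM to between 81.9 and 130.0 FPKM (log2 change 1.99, limma adjusted p 0.0311). The macrophage list was higher in the same libraries, and its part in the change of Lgals3 was not tested.

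Of 17 early response genes, the class to which Klf4, Klf6 and Klf10 belong, 11 were called lower and 0 higher, where 1.56% and 6.55% of all genes were, with a median log2 change of -1.20. The changes were largest for Fosb (-2.44), Atf3 (-1.93), Jun (-1.73) and Egr1 (-1.69), with limma adjusted p from 0.0333 to 0.0470. In 16 of the 17, every ultrasound library was below every control, as in 8.96% of all tested genes. Like Klf6, the list was nearer to the controls in ultrasound 1, with a median of -0.77 against the control mean, than in ultrasound 2 and 3, at -1.69 and -1.23. Earlier results of these data already showed early response genes lower, so the count is not independent support.

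Klf9 was also set beside a glucocorticoid list of 9 tested genes, namely Nr3c1, the gene of the glucocorticoid receptor, and 8 genes known to be induced through it. Of the 9, 1 was called higher and 1 lower, beside 6.55% and 1.56% of all genes. The median log2 change was -0.14, which is the value of Nr3c1 itself, and -0.17 over the 8 induced genes. Cebpd, also known in myeloid cells, rose from between 0.796 and 1.22 FPKM to between 3.22 and 5.18 FPKM (log2 change 1.29, limma adjusted p 0.0297). Errfi1, a feedback inhibitor of growth factor receptors, fell from between 8.22 and 11.7 FPKM to between 4.2 and 6.76 FPKM (log2 change -0.83, limma adjusted p 0.0475). None of the 9 showed the Klf9 pattern of ultrasound 1 above and ultrasound 2 and 3 below all controls, against 9.03% of all tested genes. Whether 0 of 9 differs from that share was not tested. The pattern was found in 2 of 6 other Klf and Sp genes, 3 of 15 cofactors, 2 of 12 reported targets and 1 of 17 early response genes. Fkbp5, a receptor co-chaperone gene singled out after its values were seen, matched the Klf9 pattern in part. It had 53.6 FPKM in ultrasound 1 against 21.4 to 28.8 FPKM in the controls. Ultrasound 2 and 3, at 23.8 and 25.1 FPKM, lay within the controls.

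**Figure D5:**
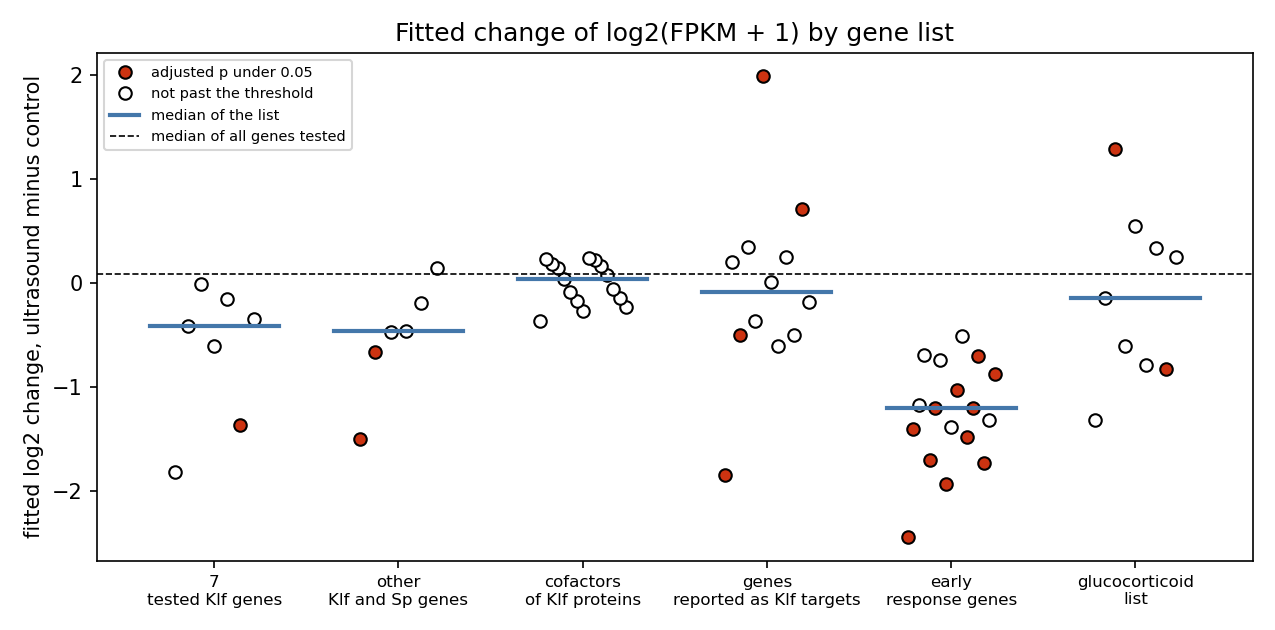
Fitted log2 change (vertical axis, ultrasound minus control) of each tested gene by list; filled points passed a limma adjusted p of 0.05, the solid bars are list medians and the dashed line the median of all genes tested, 0.09. The early response list has its median at -1.20, the 7 tested Klf genes at -0.41 and the cofactor list at 0.04.

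For the 3 members with the largest changes, the nearest profiles were sought among 7522 other tested genes with a mean of at least 5 FPKM, by the root mean square difference of mean-centred log2(FPKM + 1) over the 6 libraries. Klf6 lay nearest to Csrnp1, a nuclear protein gene of the early response, at 0.14, then to Mir17hg, the host gene of a microRNA cluster, at 0.17, and to the AP-1 gene Fosl2 at 0.17, where the median gene lay at 1.13. Csrnp1 had 75, 84.1 and 94.7 FPKM in the controls and 43.0, 14.9 and 16.7 FPKM in ultrasound 1, 2 and 3. Klf4 lay nearest to the phosphatase gene Dusp2 at 0.17, to the growth arrest gene Gadd45a at 0.19 and to the histone demethylase gene Kdm6b at 0.21, with a median gene at 0.78. Klf10 lay nearest to Gbp6 at 0.054, Rilpl2 at 0.059 and the splicing factor gene Srsf7 at 0.065, with a median gene at 0.42. These are descriptions over 6 libraries that share depth and the split of ultrasound 1 from the others.

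In the authors' deposited table, Klf4, Klf6 and Klf10 have log2 fold changes of -1.52, -1.69 and -0.75 with q of 6.68e-07, 0.00427 and 0.00392. These are the 3 of 8 members with q under 0.05 there, all lower, where 4.98% of the genes of that table are called lower. Klf12 has a log2 fold change of 0.69 with q of 0.163 in the authors' deposited table. It is in their filtered table with Klf4, Klf6 and Klf10. A cut on p-value and fold change, taken for that filtered table and applied to the full one, keeps 15.5% of all genes. For Klf3, Klf7, Klf9 and Klf13 the authors' deposited q lies between 0.367 and 0.826.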

How the data were processed

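Per the submitters' processing notes, HISAT2, HTSeq, DESeq2, R 3.2.0 and the build mm10 were used, with no role given. Per the file headers, the authors deposited FPKM per library and a signal (DESeq2 normalized counts, averaged per group and over all samples). A fold change, its log2, and p-value and q-value columns were deposited too. No column holds counts, so log2(FPKM + 1) was fitted with limma 3.58.1, with its trend and robust options (R 4.3.3). The 10655 genes that reached 1 FPKM in 3 libraries entered. P-values are two-sided, Benjamini-Hochberg adjusted over all genes tested, with a threshold of 0.05. FPKM and group means gave whole reads per gene: 100% of 37109 values between 0.5 and 100 reads lay within 0.05 of a whole number. Reads carry no molecular identifiers. The fit and the recovery were tested on simulated data. How shared or strand-ambiguous reads were counted is not given in the sources used here.

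Members and lists were chosen with earlier results of these data known. Named were all members. From each list the genes past the threshold were named, or the 4 largest changes where none or over 4 passed. For the 3 members with the largest changes the 3 nearest profiles were named. Klf5, Fkbp5, Ctbp2, Tyrobp, Eomes, Ncr1, Klrb1c, Klra8, Klra4, Klre1 and Nr3c1 were named outside this rule. The alternatives were pseudocounts, filters, scalings, a non-robust fit, voom on recovered reads (library sizes from median-of-ratios factors), a replicate block, each library left out and the authors' DESeq2 values; ratios to Klf13 were added after seeing the data. Klf14, Klf17, Sp5, Sp7, Sp8 and Sp9 were not analysed here. Python 3.11.15 with pandas 2.3.3, numpy 2.4.6 and matplotlib 3.10.9 did the rest.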

Additional observations from a re-analysis of the deposited data

How the results depend on the processing

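Counts of genes called depended on single libraries and settings, and the cause was not tested. Without a filter on low values, and with the replicate block, 0 of all genes passed, with 4216 and 3249 at an unadjusted limma p under 0.05. The 0 held for the Klf genes tested (8 without the filter, 7 with the block) and for every list. The authors' deposited table gave 2179 genes (12.3%), 3 of 8 Klf genes, 3 of 16 cofactors, 5 of 10 glucocorticoid list genes and 3 of 11 other Klf and Sp genes. Median-of-ratios factors gave 468 genes (4.39%) and 1 of 9 glucocorticoid list genes, and voom on recovered reads 573 genes (5.38%). Upper-quartile factors gave 577 genes (5.41%) and 2 of 7 Klf genes. With a filter of 5 FPKM in 3 libraries, 1 of 8 glucocorticoid list genes passed, against 614 of 7598 genes (8.08%). Leaving out one library gave 0 to 5727 genes, 0 to 6 Klf genes, 0 to 5 other Klf and Sp genes, 0 to 8 cofactors, 0 to 10 reported targets, 0 to 17 early response genes and 0 to 6 glucocorticoid list genes. The highest came without ultrasound 1, where 53.7% of all tested genes were called. The shares there were 85.7% of the Klf genes, 83.3% of the other Klf and Sp genes and 53.3% of the cofactors. They were 83.3% of the reported targets, 100% of the early response genes and 66.7% of the glucocorticoid list. Each 0 came without control 2, control 3, ultrasound 2 or ultrasound 3 (for cofactors also without control 1), with 1962, 2154, 2058 and 1998 genes at an unadjusted limma p under 0.05. Without control 1, 567 genes passed.

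Klf3, Klf4, Klf6, Klf7, Klf9 and Klf10 kept a negative change in each fit that tested them, in the authors' values and in the ratios to Klf13, but without ultrasound 2 Klf3 was at -0.012, and without ultrasound 2 or ultrasound 3 Klf9 was at -0.095, close to 0. Klf13 lay between -0.054 and 0.036 over the 6 leave-one-out fits, 4 of which turned its direction. Rescaling moved Klf13 further, to -0.127 with median-of-ratios factors, -0.114 with upper-quartile factors and -0.109 with voom. In the authors' values Klf13 was at -0.126. None of these passed the threshold. No pairing by replicate number was found, as correlations between libraries of equal number, after subtracting group means, were -0.04, 0.05 and 0.06. With the replicate block Klf4 had a limma adjusted p of 0.0856. Depth, at 1190 reads or more for each tested member but Klf9 (160), was not tested as a limit.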
